A study of Mus musculus with 8 samples.

Results

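Bcl11a and Bcl11b are paired zinc-finger transcription factor genes, and they are the 2 genes taken here from the 24538 gene names shared by the 4 RNA-seq tables of the series. They were chosen by name, and their chromatin was taken as every open region found by ATAC-seq (a transposase assay of accessible DNA) from 1 Mb upstream to 1 Mb downstream of each gene. That gave 125 regions around Bcl11a and 134 around Bcl11b, out of 134830 merged from the 4 ATAC-seq peak lists. The knockout cells came from mice with CreER, a Cre recombinase switched on by tamoxifen, and loxP-flanked Tcf7 and Lef1, the genes of the transcription factors TCF-1 and LEF-1. The control cells came from CreER mice labelled wild type, so both groups carried CreER. Both groups also received 4-OH tamoxifen from day 3 to day 5. In both, LSK bone-marrow progenitors were cultured on OP9-DL1 stromal cells, which present the Notch ligand Delta-like 1. On day 7 the c-Kit-positive DN1 fraction was sorted, which by label lacked lineage markers, CD4, CD8 and CD25 and was high in CD44. Each genotype had 2 RNA-seq and 2 ATAC-seq libraries, and nothing in the labels says that they came from separate mice or cultures, so the p-values measure only the spread between these libraries. Which promoter drives CreER is not stated in the labels.

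BCL11A and BCL11B bind DNA through zinc fingers and recruit chromatin regulators, chiefly the NuRD histone deacetylase complex, and both have been found as subunits of the BAF (SWI/SNF) remodelling complex. BCL11A is known for its part in early lymphoid and B-cell development, in plasmacytoid dendritic cells and in the silencing of embryonic and fetal globin genes. BCL11B is known as the factor whose onset marks commitment to the T lineage. TCF-1, GATA3, RUNX1 and Notch signalling are known as inputs to its gene, together with a far enhancer in the gene-poor stretch downstream of it.

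The promoters of the 2 genes are shown as given for their RefSeq transcripts. For Bcl11a that start differs from the start site from which the open regions below are measured. They are the 250 bases before each RefSeq start in GRCm38.p6, the patch release of mm10, 5′ to 3′ on the gene's own strand. Capitals mark CTTTGAA, a core letter string of the TCF/LEF family.
Bcl11b, chr12:108003415-108003664, minus strand: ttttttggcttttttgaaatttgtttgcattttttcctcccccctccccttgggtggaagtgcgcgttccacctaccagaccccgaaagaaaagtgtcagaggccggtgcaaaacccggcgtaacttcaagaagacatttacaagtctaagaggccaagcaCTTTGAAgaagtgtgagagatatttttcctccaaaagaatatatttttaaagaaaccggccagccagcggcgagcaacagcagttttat
Bcl11a, chr11:24080445-24080694, plus strand: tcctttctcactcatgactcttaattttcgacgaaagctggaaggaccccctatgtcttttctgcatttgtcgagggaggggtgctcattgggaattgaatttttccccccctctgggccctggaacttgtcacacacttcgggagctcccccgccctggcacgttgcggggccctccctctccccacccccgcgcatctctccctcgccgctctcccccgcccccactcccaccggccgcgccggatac
The Bcl11b promoter held 1 CTTTGAA, which began 89 bases before the start, and 4.46% of 32851 promoters of the same length held that string on either strand. Neither promoter held CTTTGAT, the other TCF/LEF core searched, found in 3.21% of promoters. The GATA string AGATAA (9.99% of promoters), the RUNX string TGTGGT (14.0%) and the E-box CAGCTG (13.0%) were in neither, again on both strands. The RBPJ string TGGGAA, present in 21.6% of promoters, occurred 1 time in the Bcl11a promoter, 161 bases before the start. The strings do not overlap in these windows, and a match is only a description of letters. The G and C content was 44.8% for Bcl11b and 62.0% for Bcl11a, against a median of 52.4% over all promoters. The RefSeq start used here for Bcl11b was that of the expression tables, whereas that used for Bcl11a lay 2639 bases inside the gene as those tables draw it. The outermost RefSeq starts lay upstream of the tables' starts, by 731 bases for Bcl11b and 1492 for Bcl11a.

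The deleted genes were read first, as a check of the labels. Tcf7 had 13.2 and 12.4 TPM (a transcript level scaled for gene length and for the library's total) in knockout cells, against 518 and 510 TPM in control cells. Its mean was 40.1-fold lower (limma, Benjamini-Hochberg adjusted p = 8.64e-06), and these whole-gene values also cover any exon outside the floxed part. Lef1 was near the floor in both groups, at 1.46 and 1.57 TPM in knockout cells and 1.66 and 1.10 TPM in control cells, so it checks little (limma adjusted p = 0.80). Of the markers the sort selected for, Kit had 157 TPM in each knockout library, against 251 and 238 TPM in control cells, and Cd44 had 103 and 105 TPM in knockout cells, against 94.0 and 109 TPM in control cells. Each library had between 13050 and 13314 genes at 1 TPM or more. Read totals are not in the tables, so the counting precision behind a TPM is unknown. Of the 13228 genes that averaged 1 TPM or more, limma called 1940 lower in the knockout (14.7%) and 3331 higher (25.2%), together 39.8%, at an adjusted p under 0.05. Median-ratio scaling moved this split to 2391 lower and 2575 higher, and leaving out 1 library gave 1088 to 1450 lower and 2005 to 2242 higher.

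Bcl11b RNA fell to the edge of detection in the knockout. It had 0.334 and 0.238 TPM in knockout cells, against 9.30 and 8.16 TPM in control cells. Both knockout libraries lay far below both control libraries, and the means were 0.286 ± 0.068 TPM in knockout cells and 8.73 ± 0.81 TPM in control cells (SD, n = 2 each). The mean was 30.5-fold lower. On the log2(TPM + 1) scale, which understates changes of low genes, the difference was -2.92 (SE 0.21, 95% interval -3.44 to -2.39; limma adjusted p = 0.00071). By that difference Bcl11b ranked 25 of 13228 tested genes, counted from the most negative, so 0.181% of tested genes were more negative. The coverage per base that the authors' tables give for Bcl11b was 0.417 and 0.299 in knockout cells, against 10.5 and 8.17 in control cells. The knockout values thus rest on less than 1 read of depth over the transcript. Bcl11b passed the filter on low values through its control level alone. In bulk RNA, fewer Bcl11b-expressing cells and less Bcl11b RNA per cell cannot be told apart.

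Bcl11a RNA was abundant in both groups and its difference did not pass the test. It had 92.1 and 91.4 TPM in knockout cells, against 84.6 and 85.7 TPM in control cells. The groups did not overlap, but the means were close, at 91.8 ± 0.47 TPM in knockout cells and 85.2 ± 0.83 TPM in control cells (SD, n = 2 each). The ratio of the means was 1.08. The log2 difference was 0.11 (SE 0.048; limma adjusted p = 0.135), and its 95% interval ran from -0.01 to 0.23. The median log2 difference over all tested genes was 0.09, and 51.3% of tested genes had a more negative difference than Bcl11a.

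**Figure D1:**
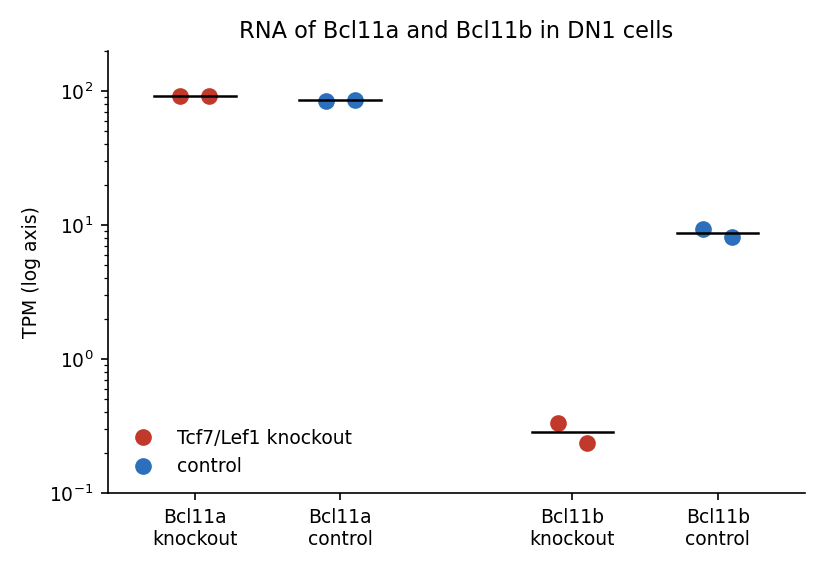
RNA level of Bcl11a and Bcl11b (TPM, log axis) in the knockout and control libraries; each point is 1 library and each line the mean of 2. Bcl11a sits at 84.6 to 92.1 TPM in all 4 libraries, while Bcl11b lies at 0.238 and 0.334 TPM in knockout cells and at 8.16 and 9.30 TPM in control cells.

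The 2 paralogs thus stood in a different proportion in the 2 genotypes. The ratio of Bcl11a to Bcl11b TPM was 276 and 385 in knockout cells, against 9.10 and 10.5 in control cells. Bcl11b made up 0.362% and 0.259% of their joint TPM in knockout cells, against 9.91% and 8.69% in control cells. In order of level, Bcl11a in knockout cells came first, Bcl11a in control cells next, then Bcl11b in control cells and last Bcl11b in knockout cells. The 2 Bcl11a groups did not differ beyond the test's threshold and the 2 Bcl11b groups did, while the levels of the 2 genes were not tested against each other. Among the genes detected in each library, Bcl11a exceeded 91.5% and 91.3% in knockout cells and 91.5% and 91.8% in control cells. Bcl11b exceeded 17.0% and 13.4% of detected genes in knockout cells, against 53.6% and 52.4% in control cells.

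Likeness of pattern was measured as the Euclidean distance between centred log2(TPM + 1) profiles over the 4 RNA libraries. The 5 genes nearest to Bcl11b were Thy1 (distance 0.162), Olfm5 (0.22), Dpp4 (0.256), 5830411N06Rik (0.361) and Mirlet7i (0.375). Thy1, which encodes a surface antigen of T-lineage cells, had 4.37 and 4.79 TPM in knockout cells, against 44.8 and 40.4 TPM in control cells. Dpp4, the gene of the surface peptidase CD26, had 20.7 and 23.6 TPM in knockout cells, against 174 and 180 TPM in control cells. The 5 nearest to Bcl11a were Hsp90ab1 (distance 0.00707), Nup210 (0.00802), Atm (0.0128), Slain2 (0.0147) and Tor1aip2 (0.015), all with log2 differences from 0.10 to 0.12. With 4 libraries in 2 groups, such a profile holds little beyond the difference between genotypes.

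Chromatin around the genes was read from the authors' MACS2 peak lists, which were called for each library separately. The score of a peak (−log10 q) and its fold enrichment are the authors' own values for that list, and the depth of these libraries is unknown, so no test was made between lists. A region is called knockout-alone or control-alone here where both lists of that genotype have a peak in it and neither list of the other does. Around Bcl11b the lists held 102 and 109 peaks in knockout cells, against 112 and 114 in control cells. Around Bcl11a they held 96 and 98 peaks in knockout cells, against 95 and 87 in control cells. Whole lists ran the other way from the Bcl11b window, with 109380 and 111007 peaks in knockout cells and 103009 and 105227 in control cells.

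Of the 134 regions around Bcl11b, 6 were knockout-alone (4.48%) and 13 control-alone (9.7%), where 6.63% and 4.79% of all regions of the genome were of these kinds. Of the 125 around Bcl11a, 11 were knockout-alone (8.8%) and 8 control-alone (6.4%). The order of the Bcl11a counts was not stable, at 3 knockout-alone against 6 control-alone regions once peaks under a −log10 q of 10 were left out. All counts grow when 1 list is left out, as do the shares over the genome, since the rule then asks for less. Without knockout list 1, the knockout-alone regions numbered 14 around Bcl11b and 19 around Bcl11a, or 10.4% and 16.1% of each window, beside 12.8% over the genome. The control-alone ones around Bcl11b then numbered 15 (11.2%, beside 6.75%). Leaving out knockout list 2 also gave 19 knockout-alone regions around Bcl11a (16.1%, beside 12.2%). Without control list 2, the knockout-alone regions around Bcl11b numbered 11 (8.21%, beside 10.2% over the genome). The control-alone ones then numbered 20 around Bcl11b (14.9%) and 16 around Bcl11a (13.1%), beside 7.94% over the genome. The remaining regions were in all 4 lists, 84 around Bcl11b and 66 around Bcl11a, or in another combination, 31 and 40. Regions in all lists were compared by the authors' fold enrichment, a choice made after the values were seen. Both knockout folds were lower than both control folds in 23 of the 84 around Bcl11b (27.4%) and in 12 of the 66 around Bcl11a (18.2%), beside 24.9% over the genome. Both were higher in 25 (29.8%) and 21 (31.8%), beside 28.9% over the genome. The median ratio of the mean knockout fold to the mean control fold was 1.02 around each gene, beside 1.01 over the genome.

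The sides of Bcl11b differed in what their regions were. The 14 regions downstream all lay between genes, at 195.5 to 916.9 kb from the start. Of them 1 was knockout-alone, 7 were control-alone, 4 were in all lists and 2 in another combination. The 116 upstream regions, most of them inside or at the start of other genes, included 4 knockout-alone (3.45%) and 6 control-alone ones (5.17%). Around Bcl11a, the 39 downstream regions held 3 knockout-alone and 3 control-alone ones (7.69% each). The 62 upstream regions held 6 knockout-alone (9.68%) and 2 control-alone ones (3.23%). The split of the Bcl11b window by side was looked at after its values were known and was not tested.

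**Figure D2:**
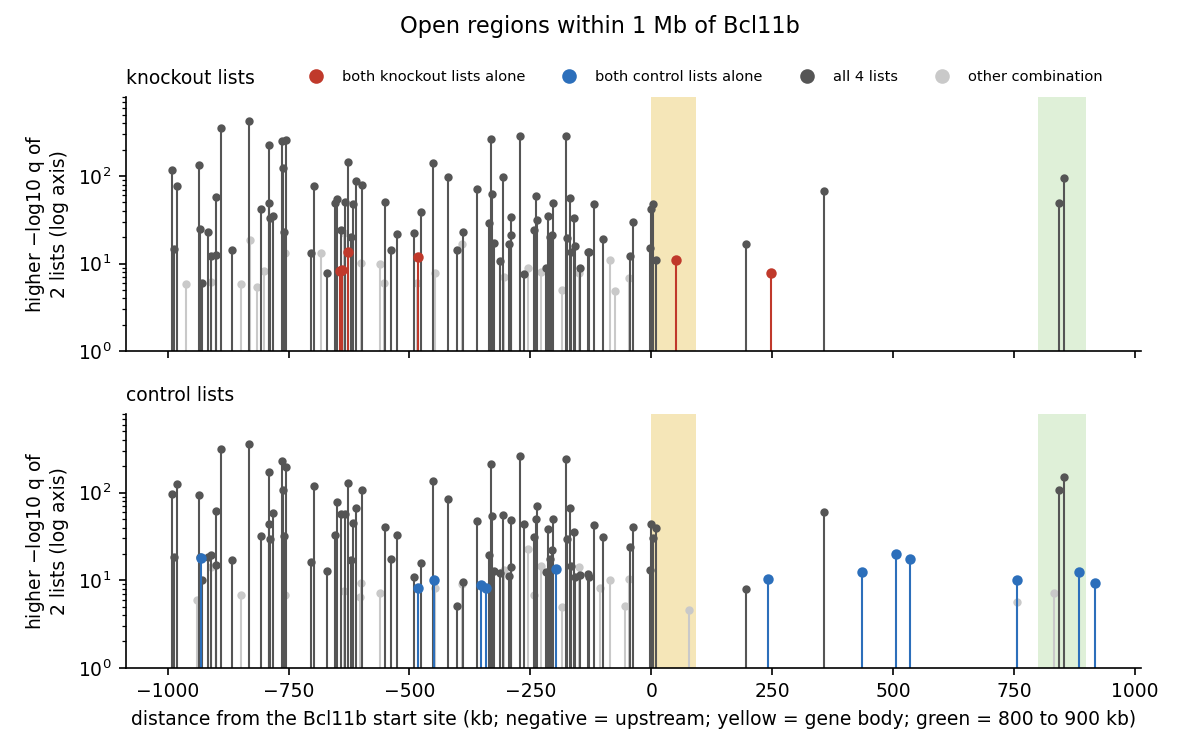
Open regions within 1 Mb of Bcl11b by distance from its start (kb, negative upstream), with the higher −log10 q of the 2 knockout lists above and of the 2 control lists below, on log axes. Of the 14 regions downstream of the gene, 1 is in both knockout lists alone (red) and 7 in both control lists alone (blue); the yellow band is the gene body and the green band 800 to 900 kb downstream.

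The start of Bcl11b was open in both genotypes. The region at the start, chr12:108003959-108004339, lies 295 bases beyond the printed promoter and over the outermost RefSeq start, 731 bases upstream of the tables' own. It had a −log10 q of 33.5 and 42.3 in knockout lists, against 35.8 and 43.6 in control lists. Its fold enrichment was 10.8 and 12.3 in knockout lists, against 10.7 and 11.8 in control lists. The groups overlapped in both measures, beside a 30.5-fold lower RNA mean. The body of the gene held 4 regions, and these did not move together. The region 4.5 kb inside the gene, chr12:107998778-107999075, had folds of 14.0 and 17.0 in knockout lists, against 12.5 and 11.2 in control lists. The region 10.2 kb inside, chr12:107993084-107993372, was the opposite case. Its −log10 q was 11.1 and 9.92 in knockout lists, against 39.4 and 38.0 in control lists. Its fold was 7.48 and 6.98 in knockout lists, against 14.6 in each control list. The ratio of 0.494 was the lowest of the 84 shared regions in the window, and 0.57% of shared regions in the genome had a lower one. A knockout-alone region lay 51.0 kb inside the gene, at chr12:107952280-107952544, with a −log10 q of 7.89 and 11.0. The other body region was a peak of 1 control list.

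The stretch from 800 to 900 kb downstream of the Bcl11b start, where the far T-lineage enhancer is known, held 4 regions. Its strongest, 854.8 kb downstream at chr12:107148406-107148876, had a −log10 q of 85.3 and 95.3 in knockout lists, against 146 and 151 in control lists. Its fold was 16.5 and 18.0 in knockout lists, against 18.2 and 18.3 in control lists. The next, 843.2 kb downstream at chr12:107159877-107160542, had a −log10 q of 39.5 and 48.8 in knockout lists, against 108 and 99.5 in control lists. Its fold was 11.2 and 13.0 in knockout lists, against 15.2 and 14.4 in control lists. Both were thus open in every list, with lower values in both knockout lists. The ratios of mean folds were 0.947 and 0.817, and 33.5% and 12.9% of shared regions in the genome had lower ones. The region 884.1 kb downstream, chr12:107119184-107119407, was control-alone, with a −log10 q of 12.6 and 12.3. The region 832.3 kb downstream was a peak of 1 control list alone, with a −log10 q of 7.10.

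Nearer to the gene, the downstream control-alone regions were weaker than most peaks of their lists. The region 506.3 kb downstream, chr12:107496947-107497286, had a −log10 q of 19.7 and 11.5 in control lists. The region 535.4 kb downstream, chr12:107467909-107468179, had 17.4 and 17.6. The region 436.8 kb downstream, chr12:107566467-107566723, had 12.6 and 12.3. Of these, the peak at 19.7 outranked 45.3% of the peaks of its own control list and the peak at 12.3 outranked 29.2%. The shared regions at 195.5 and 357.9 kb downstream had higher folds in both knockout lists.

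The Bcl11a gene was overlapped by 24 regions and was open at its start in every list. The region at the tables' start, chr11:24077357-24078148, had a −log10 q of 53.8 and 44.4 in knockout lists, against 45.2 and 47.3 in control lists. Its fold was 4.64 and 4.28 in knockout lists, against 4.69 and 4.59 in control lists. The groups overlapped in both measures, and the ratio of the mean folds was 0.962. The region chr11:24080872-24081588, 178 bases past the printed promoter, was also in all lists, with a ratio of 0.965. Regions further inside went both ways. The region 54.0 kb inside, chr11:24131863-24132267, had folds of 10.1 and 11.6 in knockout lists, against 15.9 and 15.1 in control lists. Its ratio of 0.70 was the lowest of the 66 shared regions of the window, and 4.93% of shared regions in the genome had a lower one. The region 33.9 kb inside, chr11:24111793-24112107, had folds of 11.0 and 15.2 in knockout lists, against 7.32 and 8.09 in control lists. Its ratio of 1.7 was the second highest of the 66. Knockout-alone regions lay 7.3 and 25.4 kb inside the gene. Of its 3 control-alone regions, the strongest, chr11:24127933-24128233, had a −log10 q of 16.7 and 14.5 in control lists, and the others lay 8.3 and 77.8 kb inside. The strongest knockout-alone region of the window lay 742.7 kb upstream, inside Usp34, with a −log10 q of 18.2 and 13.9.

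**Figure D3:**
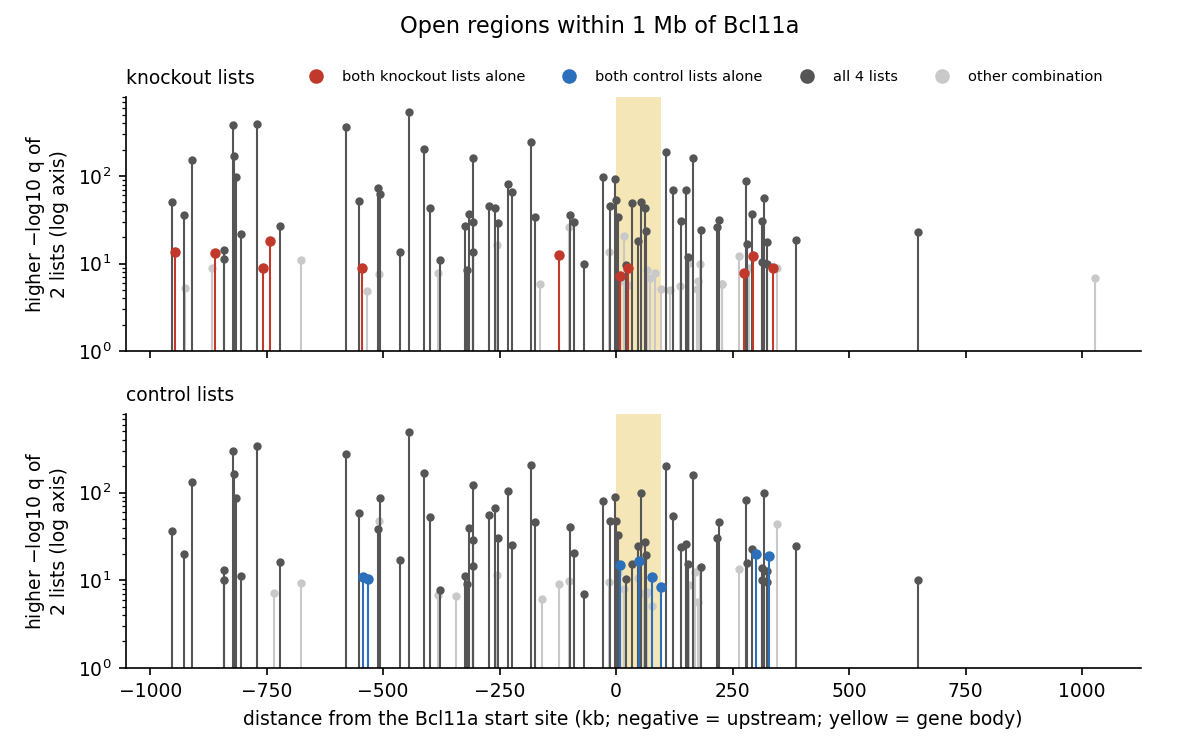
Open regions within 1 Mb of Bcl11a by distance from its start (kb, negative upstream), with the higher −log10 q of the 2 knockout lists above and of the 2 control lists below, on log axes. Knockout-alone (red, 11) and control-alone (blue, 8) regions lie on both sides of the gene and in its body (yellow band), among 66 regions in all 4 lists. The knockout-alone and control-alone ones are 8.8% and 6.4% of the window, beside 6.63% and 4.79% over the genome.

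**Figure D4:**
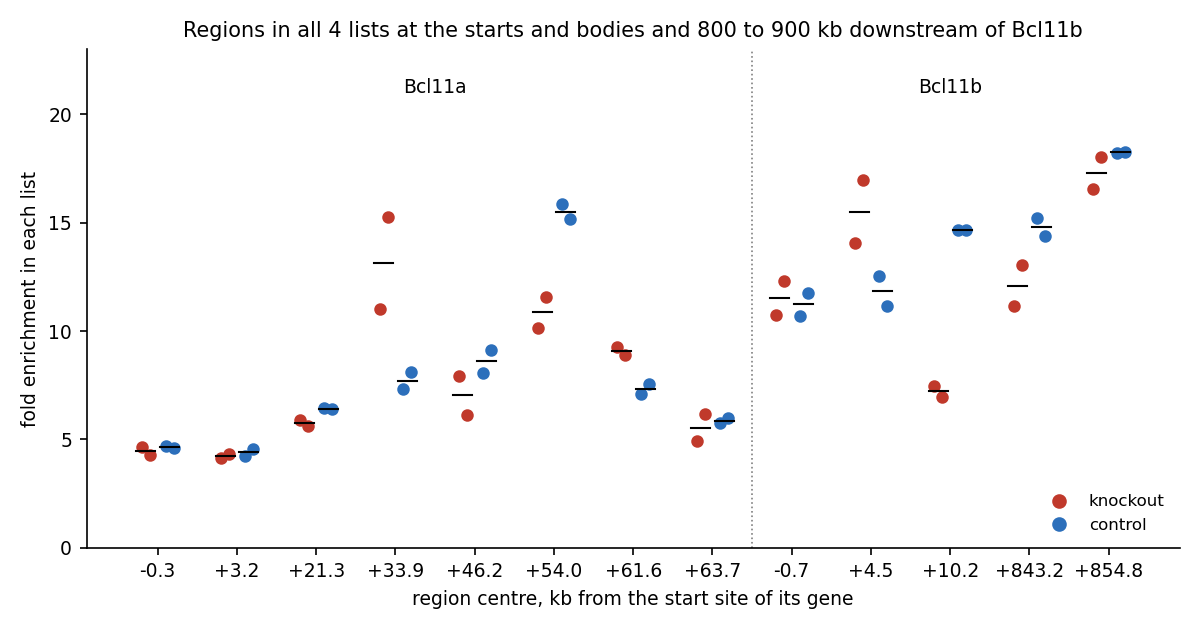
Fold enrichment in each peak list (knockout left of control; lines are means of 2) of the regions in all 4 lists at the start and in the body of each gene, and 800 to 900 kb downstream of Bcl11b. The Bcl11b region at 10.2 kb has folds near 7 in knockout lists and of 14.6 in control lists, while the Bcl11b start region overlaps between the groups.

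Most of the tested neighbouring genes were not called, and none changed by as much as Bcl11b. Of 17 other genes within 1 Mb of Bcl11b, 13 were tested, 1 was lower, 1 higher and 11 were not called, where 39.8% of all tested genes were called. Ccdc85c, which starts 272 kb upstream of Bcl11b, had 11.4 and 7.66 TPM in knockout cells, against 23.6 and 27.3 TPM in control cells (2.67-fold lower; log2 -1.35, limma adjusted p = 0.0047). Inside it, at chr12:108266280-108266640, lay the shared region with the second lowest fold ratio of the window, 0.499. That region had a −log10 q of 7.57 and 7.50 in knockout lists, against 42.5 and 44.1 in control lists. Wars, a tRNA synthetase gene 891 kb upstream, had 47.2 and 44.5 TPM in knockout cells, against 27.4 and 32.8 TPM in control cells (log2 0.60, limma adjusted p = 0.0088). Its call was lost without knockout library 1 (limma adjusted p = 0.0526). Setd3 and Ccnk, the nearest genes upstream, were not called, and the gene downstream, 4930465M20Rik, was listed at 0 TPM in every library.

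Of 13 other genes within 1 Mb of Bcl11a, 8 were tested, 1 was lower, 1 higher and 6 were not called. Among all tested genes 14.7% were lower and 25.2% higher, together 39.8%, and a count over 8 genes says little. Rel, an NF-kappa-B subunit gene that starts 307 kb upstream, had 22.5 and 20.3 TPM in knockout cells, against 48.4 and 42.0 TPM in control cells (2.11-fold lower; log2 -1.04, limma adjusted p = 0.0016). Xpo1, which encodes the nuclear export receptor exportin, starts 822 kb upstream. It had 129 TPM in each knockout library, against 95.5 and 90.7 TPM in control cells (log2 0.47, limma adjusted p = 0.0020). Papolg, nearest upstream of Bcl11a, was not called.

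Known regulators of Bcl11b and of T-lineage commitment were mostly lower. Of 18 such genes, 12 were lower (66.7%), 3 higher (16.7%) and 3 not called, with a median log2 difference of -0.41. Over all tested genes 14.7% were lower and 25.2% higher, with a median of 0.09. Gata3, which encodes a T-lineage factor that acts on Bcl11b, had 9.10 and 10.2 TPM in knockout cells, against 45.4 and 43.4 TPM in control cells (log2 -2.09, limma adjusted p = 0.00030). Notch1, the gene of the receptor for Delta-like 1, had 79.5 and 77.0 TPM in knockout cells, against 159 and 161 TPM in control cells (log2 -1.02, limma adjusted p = 0.00028). Tox fell by 1.14 and Satb1 by 1.17 on the log2 scale (limma adjusted p = 0.00064 and 0.015), and the call of Satb1 was lost without knockout library 1 or control library 1 (0.0747 and 0.0551). Runx1 fell by 0.63 (limma adjusted p = 0.0014). Among the other lower genes, Zbtb17 lost its call without any 1 library. Gfi1 lost its call without knockout library 2 or either control library, and Runx3 without control library 1. Lmo2, a progenitor factor gene, rose by 1.29, with 282 and 287 TPM in knockout cells and 118 and 114 TPM in control cells (limma adjusted p = 0.00015). Cbfb, the RUNX partner gene, rose by 0.43 (limma adjusted p = 0.0024). Spi1, which encodes PU.1, had a log2 difference of 0.20 (limma adjusted p = 0.034) that lost its call under 8 of 11 alternatives, both rescalings among them.

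Genes of the T-cell receptor complex and of the following DN2 stage, when Bcl11b normally comes on, were mostly lower, as Bcl11b was. Of 19, 16 were tested, 14 were lower (87.5%), none was higher and 2 were not called, with a median of -2.07. Beside them, 14.7% of all tested genes were lower and 25.2% higher. The calls of Rag2 and Cd28 were lost in some fits that left out 1 library. Il2ra, the gene of CD25, had 0.658 and 0.393 TPM in knockout cells, against 136 and 133 TPM in control cells (256-fold lower; limma adjusted p = 6.13e-05). Cells with surface CD25 had been gated out of both groups. Cd3g, a T-cell receptor subunit gene, had 1.07 and 0.342 TPM in knockout cells, against 88.2 and 99.9 TPM in control cells (133-fold lower; limma adjusted p = 0.00020). Cd3e was listed at 0 TPM in both knockout libraries, against 9.69 and 9.0 TPM in control libraries (limma adjusted p = 0.00054). Cd247, another subunit gene, had 0.578 and 2.16 TPM in knockout cells, against 20.1 and 24.0 TPM in control cells (limma adjusted p = 0.0018). Il2ra, Cd3g, Cd3e, Cd3d and Cd28 averaged under 1 TPM in knockout cells. They passed the filter on low values through their control level alone. At that knockout level they could only be called lower, and their folds rest on values near the floor.

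Genes that Bcl11b is known to restrain in T-cell precursors, many of them of natural killer and innate lymphoid programmes, were lower where they were called. Of 16, 10 were tested, 9 were lower (90.0%), none was higher and 1 was not called, with a median of -0.73. Among all tested genes 14.7% were lower and 25.2% higher. The calls of Rora and Zbtb16 were lost in fits that left out 1 library. Cd160, a receptor gene of killer cells, had 2.17 and 1.88 TPM in knockout cells, against 14.9 and 19.5 TPM in control cells (8.52-fold lower; limma adjusted p = 0.00071). Gzmb, the gene of granzyme B, had 199 and 191 TPM in knockout cells, against 507 and 524 TPM in control cells (2.65-fold lower; limma adjusted p = 0.00013). Fcer1g, a signalling adaptor gene, fell by 0.98 and Nfil3, a factor of innate lymphoid development, by 0.89 (limma adjusted p = 0.0012 and 0.0051). Id2 was lower too, at 32.0 and 35.1 TPM in knockout cells against 53.3 and 51.4 TPM in control cells. Ncr1, Tbx21, Eomes, Il2rb, Klrb1c and Zfp105 were too low to be tested.

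Genes linked to Bcl11a in lymphoid, plasmacytoid and erythroid cells went both ways, with 14 of 21 tested, 5 lower, 2 higher and 7 not called (median -0.10). The shares were 35.7% lower and 14.3% higher, beside 14.7% and 25.2% of all tested genes, and 7 of the 14 were called in either direction, beside 39.8% of all tested genes. The lists share members: Il7r and Dntt are also in the T-cell receptor and DN2 list, and Id2 is among the restrained genes. The call of Irf8, lower by 0.23 on the log2 scale, was lost without any 1 library. Ebf1, a B-lineage factor gene, had 15.1 and 12.7 TPM in knockout cells, against 3.63 and 3.98 TPM in control cells (3.66-fold higher; limma adjusted p = 0.0014). Pax5, the next B-lineage factor, had 0.214 and 0 TPM in knockout cells and was listed at 0 in both control libraries. Il7r, the interleukin-7 receptor gene, had 1.25 and 0.962 TPM in knockout cells, against 10.5 and 9.64 TPM in control cells (9.09-fold lower; limma adjusted p = 0.00088). Dntt, which encodes terminal transferase, was 4.31-fold lower (limma adjusted p = 0.00016). Mcl1, a survival gene, fell by 0.73 and Id2 by 0.63 on the log2 scale (limma adjusted p = 0.00042 and 0.0028). The cytokine receptor gene Flt3 had a log2 difference of 0.50 (limma adjusted p = 0.020), and its call was lost without knockout library 2 (0.0847), control library 1 (0.0644) or control library 2 (0.106). Hbb-y and Hbb-bh1, the embryonic globin genes that BCL11A silences, were listed at 0 TPM in every library.

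The partner complexes were expressed in both groups and their sums were close. The 14 NuRD genes added up to 2297 and 2262 TPM in knockout cells, against 2135 and 2133 TPM in control cells. Of them 4 were lower (28.6%, beside 14.7% of all tested genes), 6 higher (42.9%, beside 25.2%) and 4 not called (median 0.12). Mta3 had the largest NuRD decrease, with 69.0 and 73.0 TPM in knockout cells against 129 and 122 TPM in control cells (log2 -0.81, limma adjusted p = 0.00071). Chd3, a remodelling ATPase gene, fell by 0.45 and Gatad2b by 0.27 (limma adjusted p = 0.0015 and 0.011). The call of Gatad2b was lost without control library 1 (0.0581), and that of Chd4, at -0.14, without any 1 of the libraries (0.0628 to 0.105). Rbbp7, a histone-binding subunit gene, had the largest NuRD increase, with 313 and 312 TPM in knockout cells against 200 and 201 TPM in control cells (log2 0.64, limma adjusted p = 0.00042). Cdk2ap1, Gatad2a and Mbd3 rose by 0.51, 0.41 and 0.41.

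Of 18 BAF genes, 3 were lower, 4 higher and 11 not called, with a median of 0.05. These shares, 16.7% lower and 22.2% higher, were close to the 14.7% and 25.2% of all tested genes. They summed to 1671 and 1681 TPM in knockout cells, against 1656 and 1657 TPM in control cells. Arid1a, the gene of a large DNA-binding subunit, fell by 0.39 and Actl6a, of an actin-related subunit, rose by 0.41 (limma adjusted p = 0.0015 and 0.0077). The calls of Smarcd1 (-0.25), Smarcd2 (-0.31), Smarcd3 (0.72), Smarca2 (0.28) and Smarca4 (0.18) did not withstand leaving out 1 library. They were lost without any 1 library for Smarcd1 (limma adjusted p = 0.0733 to 0.108) and without knockout library 1 or either control library for Smarcd2 (0.0528 to 0.0788), Smarcd3 (0.144 to 0.178) and Smarca4 (0.0781 to 0.101). That of Smarca2 was lost without either knockout library or control library 2 (0.0804 to 0.0932). Smarca4, a core ATPase gene, changed sign under quantile normalization.

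Of 12 other partners, 1 was lower (8.33%, beside 14.7% of all tested genes), 7 higher (58.3%, beside 25.2%) and 4 not called, with a median of 0.23. Sirt1, a deacetylase gene, had 18.9 and 18.6 TPM in knockout cells, against 11.4 and 12.2 TPM in control cells (log2 0.62, limma adjusted p = 0.0072). Nr2f1 and Nr2f2, which encode the COUP-TF receptors with which the BCL11 proteins were first isolated, had log2 differences of 1.59 and 1.05 from levels below 6 TPM. Nr2f1 averaged 0.667 TPM in control cells and passed the filter on low values through its knockout level alone. At that control level it could only be called higher. The call of Nr2f1 was lost without knockout library 1 or control library 1 (limma adjusted p = 0.0684 and 0.0519), and that of Nr2f2 without either knockout library or control library 2 (0.0573 to 0.135). Ctbp2, a corepressor gene, differed by 0.68, a call lost without either control library (0.091 and 0.0868). Kdm1a, which encodes the demethylase LSD1, differed by -0.20, a call lost without any 1 library (0.0772 to 0.125).

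**Figure D5:**
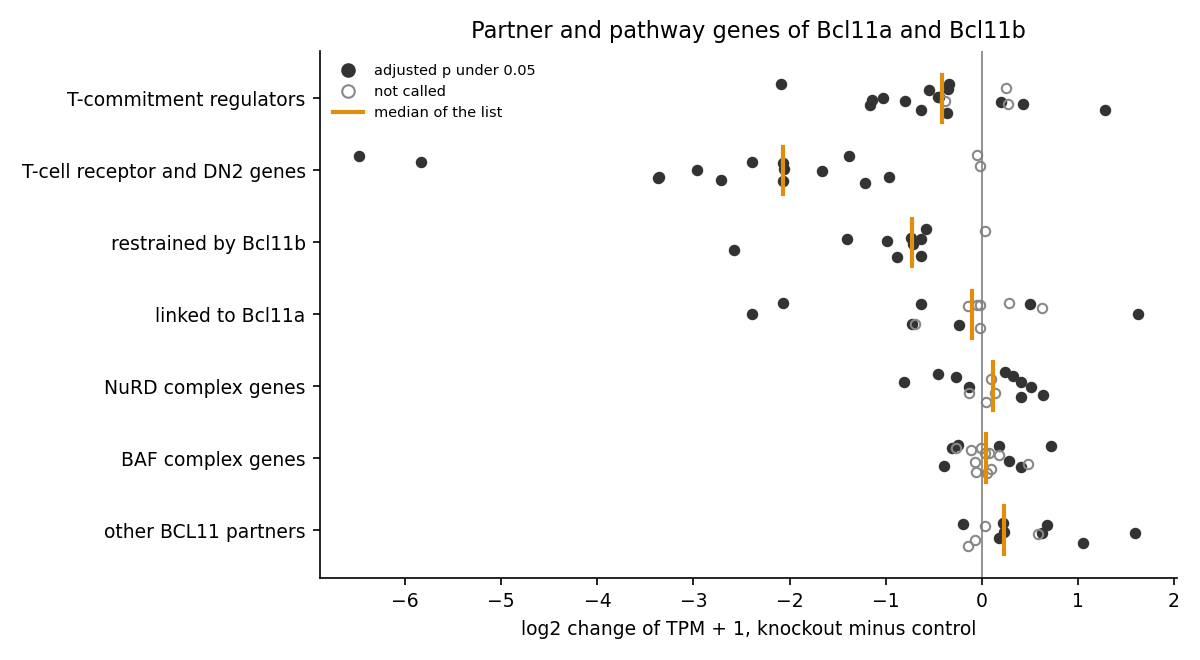
Log2 difference of TPM + 1, knockout minus control, for each tested gene of the 7 lists (filled, limma adjusted p under 0.05; open, not called; orange bar, the list's median). The T-cell receptor and DN2 genes have the most negative median, -2.07, and the NuRD, BAF and other partner genes lie around 0, with medians from 0.05 to 0.23.

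Markers of other cells moved with these results, and their part in them was not tested. The counts below stand beside 14.7% lower and 25.2% higher among all tested genes, and lists with few tested genes say little. All 9 tested of 10 T-lineage markers were lower, and the list summed to 53.6 and 53.9 TPM in knockout cells, against 381 and 387 TPM in control cells. Cd3d, Cd3e, Cd3g and Cd28 among them passed the filter through their control level alone. Mast cell and basophil markers were higher in 11 of 12, with 636 and 648 TPM in knockout cells, against 276 and 269 TPM in control cells. Fcer1a among them averaged 0.17 TPM in control cells and passed the filter through its knockout level alone. Of 14 myeloid markers 8 were higher and 2 lower, with 3808 and 3732 TPM in knockout cells, against 2049 and 2041 TPM in control cells. Of 15 stromal markers 13 were tested and 10 were higher, with 2413 and 2004 TPM in knockout cells, against 1063 and 1086 TPM in control cells, and Dcn at 0 in all. Postn, 1 of the higher ones, averaged 0.498 TPM in control cells and likewise passed through its knockout level alone. Of 12 natural killer and innate lymphoid markers 7 were tested and 4 were lower, with 376 and 379 TPM in knockout cells, against 794 and 806 TPM in control cells. Most of that control sum was Gzmb, given above, and Gzma had 35.8 and 37.2 TPM in knockout cells, against 134 and 126 TPM in control cells. Nkg7 was not called, at 121 and 131 TPM against 125 and 126 TPM. The other lower calls, Rora and Zbtb16, were lost in fits that left out 1 library, so the sum does not stand for the list. Of 14 dendritic markers 10 were tested, 6 lower and 1 higher, with 316 and 334 TPM in knockout cells, against 423 and 420 TPM in control cells. Of 11 B-lineage markers 3 were tested, 1 lower and 1 higher, with 51.7 and 48.1 TPM in knockout cells, against 81.4 and 90.7 TPM in control cells. Most of that control sum was the lower gene, Cd72, with 24.3 and 24.8 TPM in knockout cells, against 66.1 and 72.7 TPM in control cells. The higher gene was Ebf1, so the fall of the sum does not stand for the list. Of 12 erythroid and megakaryocyte markers 7 were tested, 1 lower and 3 higher, with 292 and 284 TPM in knockout cells, against 327 and 243 TPM in control cells, and Hba-a1 at 0 in all. Much of the spread between the control sums was Hbb-bt, which was not called. It had 13.5 and 0.788 TPM in knockout cells, against 111 and 16.0 TPM in control cells.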

How the data were processed

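The submitters' processing notes name HISAT2 and StringTie, which align and quantify RNA-seq reads, Bowtie2, MACS2 and the build mm10, with no versions. Per the file headers, the deposited expression tables hold the authors' coverage, FPKM and TPM for each gene. The deposited peak lists hold the authors' score, fold enrichment and −log10 p and q for each peak. Repeated entries of a gene (220 to 270 per table) were summed. TPM adds up to 1000000 in each library, so a change in abundant genes shifts all others.

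Levels were tested as log2(TPM + 1) in all genes averaging 1 TPM or more by limma 3.58.1 (R 4.3.3; moderated test with trend, genotype only, two-sided), with Benjamini-Hochberg adjustment over all of them, after the code was tested on simulated data. Peaks overlapping by 1 base were merged into regions with Python 3.11.15, pandas 2.3.3 and numpy 2.4.6; gene positions are those of the expression tables. The genes, gene lists and region rules were chosen with earlier results of these data known. From each list, up to 4 called genes per direction with the largest log2 change were named. A few others were chosen after their values were seen. They were Runx1, Id2 among restrained genes, Pax5, globin genes and the sorting markers Kit and Cd44. Cd3d, Cd28, Rag2, Rora, Zbtb16, Irf8, Zbtb17, Gfi1 and Runx3 were also added in this way. So were the markers Cd72, Fcer1a, Postn, Gzma and Nkg7. In each gene's window, regions at the start, in the body, 800 to 900 kb downstream of Bcl11b, the 5 strongest found in 1 genotype alone and the 3 strongest shared ones were eligible for naming; the region inside Ccdc85c and the shared regions nearer downstream of Bcl11b were added after their values were seen. The alternatives were another pseudocount (0.1), other filters, FPKM, quantile normalization, median-ratio scaling, a replicate block, stricter peaks, other merging, a 0.5 Mb flank, and leaving out each library. Sequences are from RefSeq, GRCm38.p6.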

Additional observations from a re-analysis of the deposited data

How the results depend on the processing

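Bcl11b was called lower in all 10 alternatives that gave it a value, with log2 differences from -4.52 (pseudocount 0.1) to -2.20 (FPKM) and limma adjusted p from 0.00069 to 0.0154; a mean TPM of at least 5 removed it. Bcl11a was called in none of 11, from 0.01 (quantile normalization) to 0.12. Leaving out 1 RNA library gave 1088 to 1450 genes lower and 2005 to 2242 higher. Replicate numbers are shared by the groups, but no label pairs them: the deviations of replicate 1 correlated at 0.00432 across genes between genotypes, and the replicate block left 1798 lower and 3072 higher, Bcl11b at -2.92 and Bcl11a at 0.11. Of 46 genes named by rule, 15 lost a call in at least 1 alternative, and Smarca4 turned to -0.0022 under quantile normalization (limma adjusted p = 0.973). Among the genes added later, Rag2, Cd28, Rora, Zbtb16, Irf8, Zbtb17, Gfi1, Runx3 and Fcer1a lost calls too. Some genes counted as called in the lists but not named also lost calls. Around Bcl11a 11 knockout-alone regions stood against 8 control-alone ones. That order turned round at a −log10 q of at least 10, with 3 against 6 (3.33% and 6.67%, genome 5.95% and 5.36%). It was lost within 0.5 Mb, with 6 of each (6.38%, beside 6.63% and 4.79% over the genome). Leaving out 1 ATAC library loosens the rule by construction. It gave 14 to 19 knockout-alone and 9 to 16 control-alone regions around Bcl11a (14 against 16 without control list 2). These were 11.5% to 16.1% and 7.63% to 13.1% of its window. Around Bcl11b there were 7 to 14 and 14 to 20, or 5.47% to 10.4% and 11.0% to 14.9%. Over the genome the shares were then 9.47% to 12.8% and 6.75% to 8.54%. Knockout-alone regions around Bcl11b stayed fewer than control-alone ones at a −log10 q of at least 10, at 5 against 9. These were 4.59% and 8.26% of the window, beside 5.95% and 5.36% over the genome. Within 0.5 Mb there were 3 against 9 (4.17% and 12.5%, beside 6.63% and 4.79%). Without knockout list 1 the Bcl11b counts were nearly level, at 14 against 15 (10.4% and 11.2%, beside 12.8% and 6.75%). With unknown depth, a peak missing from a list is not shown to be closed chromatin.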
